A study of Homo sapiens with 8 samples.

Results

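The S100 proteins are small calcium-binding proteins, and 7 of their genes, S100A4, S100A6, S100A8, S100A9, S100A10, S100A11 and S100A12, were followed by gene symbol in MV4-11 cells, out of 26364 genes in the expression table. MV4-11 is a human acute myeloid leukemia (AML) cell line that carries FLT3-ITD and the MLL-AF4 fusion. Every library comes from this line, and the groups received DMSO as vehicle, 5 μM tranylcypromine (TCP, an inhibitor of the histone demethylase LSD1), 0.5 μM palbociclib (an inhibitor of CDK4 and CDK6) or both molecules, called the combination, for 4 days by the labels, with 2 libraries per group and 8 in all. A figure legend of the study likewise has single-molecule and combination treatments lasting 4 days, whereas its methods describe 1 day of the CDK6 inhibitor alone followed by 3 days with the LSD1 inhibitor. The methods also describe coculture of cell lines on HS-5 human stromal cells, whereas the labels of these libraries name only the culture medium.

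Most S100 proteins form dimers that change shape when they bind calcium and then hold on to a partner protein. S100A8 and S100A9 pair to form calprotectin, which is abundant in the cytoplasm of neutrophils and monocytes, binds zinc and manganese, and acts as an alarm signal on TLR4 and RAGE once released. S100A12 is a further secreted alarm protein of myeloid cells. S100A4, S100A6 and S100A11 are expressed in many tissues and bind myosin, the ubiquitin-pathway protein CACYBP and annexins, respectively, while S100A10 has lost the ability to bind calcium and acts as the light subunit of a complex with annexin A2.

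In these cells S100A8 and S100A9 were low under DMSO, far higher after palbociclib and highest with both molecules, and S100A12 was low in every group but the combination, while the broadly expressed S100A4, S100A6 and S100A11 started high and differed by little more than 1 unit on the log2 scale. S100A8 averaged 4.67 ± 1.67 TPM (a transcript level per gene length, expressed as a part of the library's total) under DMSO and 3896 ± 762 TPM under the combination (SD, n = 2 each). S100A9 averaged 6550 ± 1122 TPM under the combination (SD, n = 2), from 13.7 and 18.2 TPM in the DMSO libraries. S100A10 went the other way under palbociclib alone, from 93.5 ± 24.3 to 41.7 ± 6.27 TPM (SD, n = 2 each).

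The 7 genes lie on chromosome 1 in GRCh37, the build of the alignment, in a family cluster. S100A9 is at chr1:153330330-153333499 on the plus strand, S100A12 at chr1:153346187-153348097 on the minus strand and S100A8 at chr1:153362508-153363549 on the minus strand, so that these 3 are consecutive neighbours. S100A6 (chr1:153507075-153508720) and S100A4 (chr1:153516089-153522612) follow on the minus strand, and S100A10 (chr1:151955391-151966335) and S100A11 (chr1:152004982-152020383) stand apart from them, also on the minus strand. S100A3 lies inside the span of S100A4 on the same strand, and reads of the shared part cannot be attributed with certainty. S100A3 was at 0.212 to 1.88 TPM in all libraries, against at least 277 TPM for S100A4.

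The 250 bases before the start site are shown for the 3 neighbouring myeloid genes, whose transcripts differed most between groups, and for S100A10, whose transcripts fell under palbociclib. The sequences come from RefSeq promoter windows (GRCh38.p14) and were matched base for base to GRCh37. They are written 5′ to 3′ along the gene, and capitals mark matches to 4 short words searched on both strands. These words were TTGCNNAA and the looser TTNNGNAA or TGNNGNAA for C/EBP factors, GAGGAA for PU.1 and TATAAA for a TATA box. Every match of TTGCNNAA is also a match of the looser C/EBP words.
S100A8, chr1:153363550-153363799, minus strand: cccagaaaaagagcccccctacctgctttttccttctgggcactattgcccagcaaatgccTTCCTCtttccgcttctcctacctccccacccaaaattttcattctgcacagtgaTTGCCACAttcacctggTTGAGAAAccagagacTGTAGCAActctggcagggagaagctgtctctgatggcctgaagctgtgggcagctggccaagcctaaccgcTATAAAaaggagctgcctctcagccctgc
S100A9, chr1:153330080-153330329, plus strand: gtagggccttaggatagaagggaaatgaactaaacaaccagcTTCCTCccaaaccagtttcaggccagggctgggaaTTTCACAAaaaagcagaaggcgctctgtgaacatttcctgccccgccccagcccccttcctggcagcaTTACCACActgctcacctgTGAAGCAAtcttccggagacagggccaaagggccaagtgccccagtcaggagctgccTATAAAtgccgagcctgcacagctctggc
S100A12, chr1:153348098-153348347, minus strand: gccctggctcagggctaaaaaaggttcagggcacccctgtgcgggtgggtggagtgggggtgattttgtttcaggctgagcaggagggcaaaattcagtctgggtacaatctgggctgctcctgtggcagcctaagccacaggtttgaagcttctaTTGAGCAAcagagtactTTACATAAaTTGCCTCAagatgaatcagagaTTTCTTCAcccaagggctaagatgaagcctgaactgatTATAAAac
S100A10, chr1:151966336-151966585, minus strand: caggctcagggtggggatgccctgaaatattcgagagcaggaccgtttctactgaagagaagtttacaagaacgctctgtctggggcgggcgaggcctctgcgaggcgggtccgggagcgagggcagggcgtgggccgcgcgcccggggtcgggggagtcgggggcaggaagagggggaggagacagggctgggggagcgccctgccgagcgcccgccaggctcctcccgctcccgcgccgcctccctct

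The windows of S100A8 and S100A9 each held 3 matches of the looser C/EBP words, 1 match of the PU.1 word and a TATAAA that begins 29 bases before the start. S100A12 held 4 matches of the looser words, 1 of them also a match of TTGCNNAA, and a TATAAA that begins 8 bases before the start. The S100A10 window held none of the 4 words, which says only that these letters are not in this window. The words were not confined to the 3 neighbouring myeloid genes. The S100A11 window, not shown, held 2 matches of the looser words, 1 of them also a match of TTGCNNAA. The S100A4 window held 1 looser match and a TATAAA that begins 31 bases before the start. The S100A6 window held 1 looser match. Among 35116 RefSeq promoters cut to the same length, 55.3% held a looser C/EBP word, 23.6% the PU.1 word, 10.7% TATAAA and 9.05% TTGCNNAA. Among the 13815 of these promoters that belong to tested genes, the shares were 47.4%, 23.5%, 5.79% and 6.54% in that order. The looser C/EBP words are therefore common in promoters at large. These shares count promoters with at least 1 match, not the number of matches. RefSeq lists further start sites for S100A8, and the one next to the gene's annotated 5′ end is shown. The windows of S100A8, S100A9 and S100A12 were 53.2%, 55.6% and 49.2% G and C, against a median of 58.0% over all windows and 71.2% for S100A10. The S100A6, S100A4 and S100A11 windows were 70.0%, 62.8% and 63.6% G and C. A match is a description of the sequence and not evidence that a factor binds there.

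All 7 genes passed the filter of at least 1 TPM in at least 2 libraries, as did 14151 of the 26364 genes. Differences were tested with limma on log2(TPM + 1) in 1 fit over all 8 libraries, and a called gene had an absolute log2 fold change of 1 or more together with a Benjamini-Hochberg adjusted p below 0.01. Under TCP against DMSO, 0 of the 7 genes were called with limma, and 0.0565% of all tested genes were called in either direction. At an unadjusted p below 0.05, limma counted 1241 of all tested genes in that comparison. Under palbociclib, 5 of the 7 genes were called higher, where the background was 4.54% of all tested genes, and 1 was called lower, where it was 4.56%. Under the combination, 6 of the 7 genes were called higher against DMSO (5.87% of all tested genes) and none lower (7.82%). Against TCP alone the combination had 5 of the 7 called higher, where 5.46% of all genes were, and against palbociclib alone it had 2 of the 7, S100A9 and S100A12, where 0.459% were. For TCP, palbociclib and the combination in turn, the median log2 fold change of the 7 genes against DMSO was 0.46, 1.08 and 1.44, beside −0.04, −0.16 and −0.22 over all tested genes. Comparisons against DMSO share the same DMSO libraries.

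Scaling moved the background. Of all genes called under the combination, 42.8% were higher as deposited, 61.9% after scaling each library by its median ratio and 56.1% after quantile normalization, and for palbociclib these shares were 49.9%, 66.4% and 60.9%. Against TCP, the shares for the combination were 44.9%, 60.9% and 55.8%. The median-ratio scaling brought the median of all genes under the combination from −0.22 to −0.01. Nothing in the labels says that the libraries of a group came from separate cultures, so the p-values measure the spread between these libraries, which may be technical. An exact two-sided permutation test of 2 against 2 libraries cannot give a p below 0.333. TPM keep no sequencing depth, so no counting error can be given.

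S100A8, the smaller partner in calprotectin, was at 3.49 and 5.86 TPM in the DMSO libraries and at 12.5 and 31.5 TPM under TCP. It was at 889.9 and 771.9 TPM under palbociclib and at 4434 and 3357 TPM under the combination. The 4 groups did not overlap and stood in the order DMSO, TCP, palbociclib, combination. Against DMSO the log2 fold change was 7.23 under palbociclib (SE 0.40, limma adjusted p = 7.57e-05) and 9.44 under the combination (SE 0.40, limma adjusted p = 1.97e-05). Under TCP alone it was 1.92 (SE 0.40, limma adjusted p = 0.153), which did not pass. TCP added to palbociclib gave a further 2.22 on the log2 scale (SE 0.40), short of the threshold with a limma adjusted p of 0.0353.

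S100A9, the larger partner in calprotectin, was at 13.7 and 18.2 TPM under DMSO and at 45.0 and 60.5 TPM under TCP. It reached 1820.0 and 1578 TPM under palbociclib and 7343 and 5756 TPM under the combination, again with no overlap between groups. Its log2 fold change against DMSO was 6.66 under palbociclib (SE 0.20, limma adjusted p = 1.04e-05) and 8.59 under the combination (SE 0.20, limma adjusted p = 3.4e-06). Under TCP alone the difference was 1.66 (SE 0.20, limma adjusted p = 0.0264). TCP added to palbociclib raised S100A9 by 1.94 on the log2 scale (SE 0.20, limma adjusted p = 0.00649). That last call was lost without any 1 of the DMSO, palbociclib or combination libraries, with limma adjusted p values of 0.012 to 0.0707, and it was kept in 8 of 17 alternatives. In both combination libraries S100A9 was among the 12 highest entries of the table, at rank 9 and rank 12.

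S100A12 was listed at 0 in DMSO replicate 1 and at 0.411 TPM in replicate 2, and was at 1.37 and 4.53 TPM under TCP. Palbociclib alone left it low, at 8.39 and 6.56 TPM, whereas the combination libraries held 527 and 386 TPM. Its groups did not overlap, and the distance between the palbociclib and combination libraries was far larger than the spread within either. The log2 fold change was 2.83 under palbociclib (SE 0.39, limma adjusted p = 0.00157), 8.57 under the combination (SE 0.39, limma adjusted p = 2.23e-05) and 1.61 under TCP (SE 0.39, limma adjusted p = 0.223). The call under palbociclib held in 14 of 17 alternatives and was lost without DMSO replicate 1 or either palbociclib library (limma adjusted p from 0.0108 to 0.0123). With a pseudocount of 0.1 in place of 1, the values for palbociclib, the combination and TCP were 5.06, 10.96 and 3.53, since the DMSO libraries are at or near 0. TCP added to palbociclib raised S100A12 by 5.75 on the log2 scale (SE 0.39, limma adjusted p = 0.00199), and this comparison does not use the DMSO libraries as a baseline. This call held in 12 of 17 alternatives. It was lost without either palbociclib or either combination library, where the log2 difference stayed between 5.52 and 5.97 and the limma adjusted p was 0.0253 to 0.0362, and with a pseudocount of 0.1 (limma adjusted p = 0.0165).

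The ratio of S100A9 to S100A8, both in TPM, was 3.93 and 3.12 in the DMSO libraries and 3.61 and 1.92 under TCP. It was 2.05 and 2.04 under palbociclib and 1.66 and 1.71 under the combination. The ratio in TCP replicate 2 was thus below those of both palbociclib libraries, although S100A8 was far lower there. S100A8 was 106 and 118 times S100A12 under palbociclib but 8.41 and 8.69 times S100A12 under the combination, 9.09 and 6.96 times under TCP and 14.3 times in DMSO replicate 2, where both were low. The palbociclib libraries thus stood apart from all others in this ratio, which cannot be formed for DMSO replicate 1.

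S100A4, which binds non-muscle myosin and is known for its part in cell motility, was at 277 and 320.2 TPM under DMSO and 368 and 455 TPM under TCP. It was at 528 and 453 TPM under palbociclib and at 755 and 771 TPM under the combination, and only TCP and palbociclib overlapped. The rise under the combination was called, at a log2 fold change of 1.35 (SE 0.13, limma adjusted p = 0.000237). Under palbociclib the log2 difference of 0.71 (SE 0.13, limma adjusted p = 0.00458) fell short of the fold threshold, and under TCP it was 0.46 (SE 0.13, limma adjusted p = 0.311).

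S100A6, also called calcyclin, was at 83.0 and 100.1 TPM under DMSO and at 88.0 and 94.9 TPM under TCP. It was at 186 and 202 TPM under palbociclib and 241 and 259 TPM under the combination. Both palbociclib-containing groups lay above both others, and DMSO and TCP overlapped. The log2 fold change was 1.08 under palbociclib (SE 0.11, limma adjusted p = 0.000451) and 1.44 under the combination (SE 0.11, limma adjusted p = 9.26e-05). The palbociclib call was lost without DMSO replicate 1, at 0.95. Under TCP the difference was 0.00, with a 95% confidence interval from −0.25 to 0.26.

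S100A11, an annexin-binding member also called calgizzarin, had the highest level of the 7 under DMSO, at 366 and 349.6 TPM, and was at 369 and 355 TPM under TCP. It was at 713 and 759 TPM under palbociclib and 807 and 889 TPM under the combination. The pattern was that of S100A6, with DMSO and TCP overlapping and both palbociclib-containing groups higher. The log2 fold change was 1.04 under palbociclib (SE 0.08, limma adjusted p = 0.000168) and 1.24 under the combination (SE 0.08, limma adjusted p = 5.15e-05). Under TCP it was 0.02, with a 95% confidence interval from −0.16 to 0.20. TCP added to palbociclib gave 0.20 for S100A11 (limma adjusted p = 0.237), 0.37 for S100A6 (limma adjusted p = 0.136) and 0.64 for S100A4 (limma adjusted p = 0.0488), none of which passed.

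S100A10, the annexin A2 partner, was at 110.6 and 76.3 TPM under DMSO and at 123 and 79.3 TPM under TCP, with replicate 1 the higher library in both groups. Under palbociclib it was at 46.1 and 37.3 TPM, below every other library, and under the combination at 75.0 and 76.2 TPM, just below the lower DMSO library. Its transcripts fell by 1.13 on the log2 scale under palbociclib (SE 0.24, limma adjusted p = 0.00888). This call is close to both thresholds and held in 7 of 17 alternatives. It was lost without any 1 of the DMSO, palbociclib or combination libraries (log2 fold changes from −1.39 to −0.86, limma adjusted p from 0.0129 to 0.0593) and after median-ratio scaling (−0.97) or quantile normalization (limma adjusted p = 0.0158). Under the combination the log2 difference from DMSO was −0.28 (95% confidence interval −0.85 to 0.29), and from palbociclib it was 0.85 (SE 0.24, limma adjusted p = 0.127), so neither passed.

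Palbociclib added to TCP, the comparison of the combination with TCP alone, raised S100A8 by 7.53, S100A12 by 6.96 and S100A9 by 6.93 on the log2 scale. S100A6 and S100A11 rose by 1.44 and 1.22, where their changes under palbociclib against DMSO were 1.08 and 1.04. S100A4 differed by 0.90 (SE 0.13, limma adjusted p = 0.00145), short of the fold threshold, which it passed after median-ratio scaling (1.08) or without TCP replicate 2 (1.05). S100A10 differed by −0.38 (SE 0.24, limma adjusted p = 0.229).

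**Figure D1:**
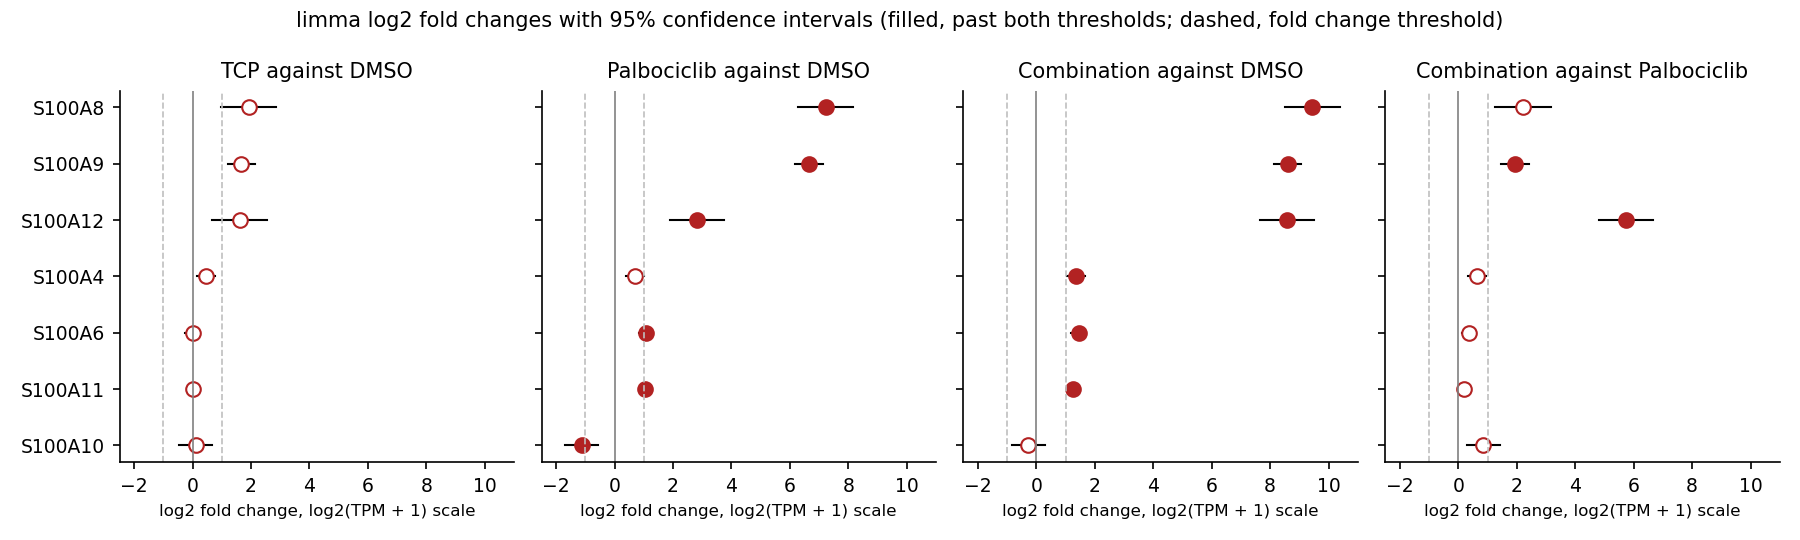
The plot of fold changes gives, for each S100 gene, the limma log2 fold change on the log2(TPM + 1) scale with its 95% confidence interval in 4 comparisons, with filled points for genes past both thresholds and dashed lines at a log2 fold change of 1 in either direction. S100A8, S100A9 and S100A12 stand far to the right under the combination (9.44, 8.59 and 8.57), S100A10 is the one gene left of 0 under palbociclib (−1.13), and S100A12 stands apart when TCP is added to palbociclib (5.75).

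The order of the 7 genes within a library changed with treatment. In both DMSO libraries S100A11 and S100A4 were the highest and S100A9, S100A8 and S100A12 the lowest, in that order, with S100A6 and S100A10 exchanging places between replicates. In both palbociclib libraries S100A9 and S100A8 came first and S100A12 last. In both combination libraries the order was S100A9, S100A8, S100A11, S100A4, S100A12, S100A6 and S100A10. Under DMSO the ranges of S100A6 and S100A10 overlapped, those of S100A11 and S100A4 did not, and in TCP replicate 2 S100A4 was above S100A11. The 7 genes held 0.0854% and 0.0871% of all TPM under DMSO, 0.101% and 0.108% under TCP, 0.419% and 0.381% under palbociclib, and 1.42% and 1.15% under the combination. S100A8 and S100A9 made up 2.01% and 2.77% of that sum under DMSO and 83.0% and 79.3% under the combination.

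**Figure D2:**
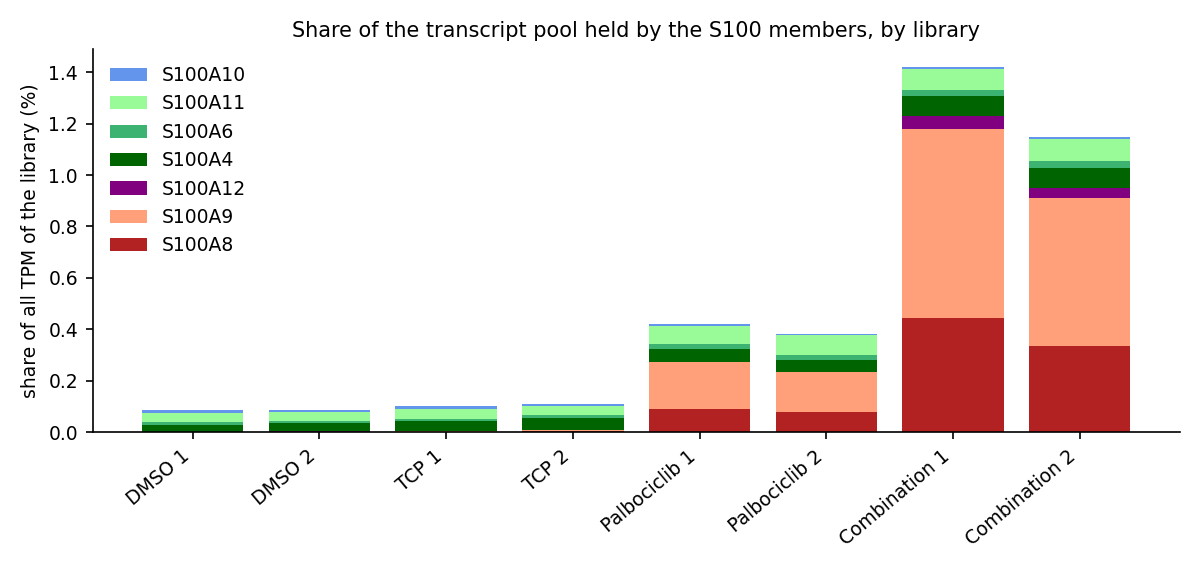
The stacked bars give the share of all TPM of each library (vertical axis, percent) held by the 7 S100 genes, 1 bar per library. The bars of the combination libraries reach 1.42% and 1.15%, mostly S100A9 and S100A8, while the DMSO bars stay below 0.1% and consist mainly of S100A11 and S100A4.

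Whether the combination exceeded the sum of both single log2 fold changes was asked with the interaction of TCP and palbociclib. For this interaction, 0 of the 7 genes and 0% of all tested genes were called with limma, and 904 of all tested genes had an unadjusted p below 0.05. A sum on the log2 scale multiplies the fold changes, so the interaction does not ask whether levels in TPM add up. For S100A12, the sum of the single log2 fold changes was 4.43 and the combination reached 8.57. Its interaction was 4.14 (SE 0.55, 95% confidence interval 2.83 to 5.45), with an unadjusted limma p of 0.000144 and an adjusted p of 0.193, which ranged from 0.0737 to 0.863 over the alternatives. With a pseudocount of 0.1 the interaction of S100A12 was 2.38, so its size depends on how the near-zero DMSO values are treated. S100A8 (9.14 as a sum and 9.44 observed) and S100A9 (8.32 and 8.59) had interactions of 0.30 (95% confidence interval −1.04 to 1.64) and 0.28 (−0.38 to 0.94). S100A10 had a sum of −1.03 and an observed difference of −0.28, with an interaction of 0.75 (95% confidence interval −0.06 to 1.56). The interactions of S100A4 and S100A11 were 0.18 (95% confidence interval −0.25 to 0.62) and 0.19 (−0.07 to 0.44). That of S100A6 was 0.36, with a 95% confidence interval from 0.0031 to 0.72 and a limma adjusted p of 0.778. In TPM, the combination levels of S100A8 and S100A9 lay above the single-molecule levels added together. S100A8 was at 12.5 and 31.5 TPM under TCP, 889.9 and 771.9 TPM under palbociclib and 4434 and 3357 TPM under the combination. For S100A9 these levels were 45.0 and 60.5, 1820.0 and 1578, and 7343 and 5756 TPM. A departure from a sum of levels was not tested.

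Of 14 other S100 genes looked up, 6 passed the filter. S100B, the member best known from astrocytes and melanocytes, was at 1.29 and 1.01 TPM under DMSO, 0.676 and 2.00 TPM under TCP, 19.9 and 25.3 TPM under palbociclib and 26.0 and 29.0 TPM under the combination. Both palbociclib-containing groups were far above the others, with log2 fold changes of 3.45 (SE 0.27, limma adjusted p = 0.000205) and 3.73 (SE 0.27, limma adjusted p = 8.41e-05) against DMSO. S100P, which like S100B does not lie on chromosome 1, was at 7.63 and 2.06 TPM under DMSO and 2.51 and 0.306 TPM under TCP. Its levels were 40.7 and 38.3 TPM under palbociclib and 19.4 and 23.0 TPM under the combination. It was called under palbociclib (log2 fold change 2.98, SE 0.56, limma adjusted p = 0.00546) and not under the combination (2.11, SE 0.56, limma adjusted p = 0.0177). S100A1, S100A3, S100A13 and S100A16 were not called in any comparison and stayed at or below 12.6 TPM. S100A1 and S100A13 overlap on opposite strands, and the strand setting of the counting is not given in the sources used here.

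Between S100A10 and S100A1 with 200000 bases on either side, 75 genes of the table have their place, 17 of them S100 genes, and the filter left 6 genes outside the family. These 6 genes, THEM4, CHTOP, SNAPIN, ILF2, INTS3 and SLC27A3, had a median log2 fold change of −0.35 under the combination, beside −0.22 over all tested genes. With limma 0 were called, where 5.87% of all tested genes were called higher and 7.82% lower. At those shares a count of 0 among 6 genes says little. Within the family, S100A7, S100A7A and S100A7L2, which follow S100A8 on the chromosome, had at most 0.469 TPM in any library, and S100A5, between S100A6 and S100A4, had at most 0.46 TPM.

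**Figure D3:**
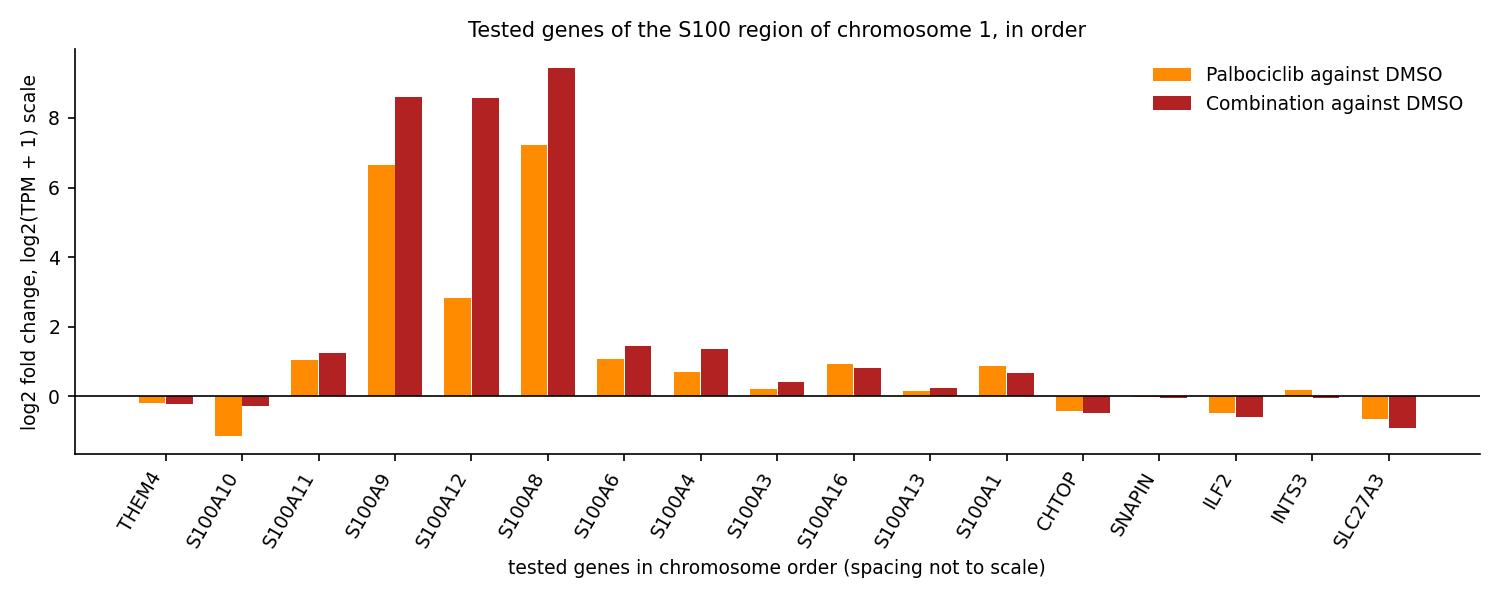
Bars give the log2 fold change on the log2(TPM + 1) scale (vertical axis) under palbociclib and under the combination, each against DMSO, for the tested genes of the region in chromosome order along the horizontal axis, spacing not to scale. The neighbours S100A9, S100A12 and S100A8 stand out (8.59, 8.57 and 9.44 under the combination), and the tested genes outside the family lie near or below 0.

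Genes for receptors and binding partners of S100 proteins were taken from a list of 18, of which 17 passed the filter. None was called under TCP (0.0565% of all tested genes in either direction), 6 were called higher under palbociclib (4.54%) and 7 under the combination (5.87%), none lower, and the list medians in that order were 0.02, 0.36 and 0.74, beside the −0.04, −0.16 and −0.22 of all tested genes. Among the partners of calprotectin, CYBB, the membrane subunit of the phagocyte NADPH oxidase, was at 3.18 and 9.02 TPM under DMSO, 156 and 204 TPM under palbociclib and 305 and 329.8 TPM under the combination (log2 fold changes 4.79 and 5.62). CD36, a scavenger receptor that binds S100A8 and S100A9 complexes with fatty acids, had log2 fold changes of 3.14 and 4.04. Both genes passed in both comparisons. TLR4, a receptor of released calprotectin, was at 15.4 and 15.8 TPM under DMSO, 7.48 and 8.15 TPM under TCP, 61.0 and 62.6 TPM under palbociclib and 51.0 and 52.1 TPM under the combination. Its difference under TCP was −0.91 (limma adjusted p = 0.00956), just short of the fold threshold, while under palbociclib it rose by 1.92 (limma adjusted p = 3.6e-05). AGER, which encodes RAGE, stayed between 1.43 and 2.34 TPM in all libraries.

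ANXA2, the annexin that binds S100A10, was at 43.4 and 46.8 TPM under DMSO, 79.0 and 94.5 TPM under TCP, 35.6 and 36.1 TPM under palbociclib and 89.0 and 99.9 TPM under the combination. Both TCP libraries lay above both DMSO libraries, and both combination libraries above both palbociclib libraries. It was the 1 partner called when TCP was added to palbociclib, with a log2 fold change of 1.37 (SE 0.11, limma adjusted p = 0.00304), where S100A10 differed by 0.85 and was not called. ANXA6, another membrane-binding annexin, rose by 1.72 on the log2 scale under the combination (limma adjusted p = 0.00216). Under palbociclib alone it rose by 1.65 (limma adjusted p = 0.00351), and TCP added to palbociclib gave 0.07 (limma adjusted p = 0.927).

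Of 12 myeloid transcription factor genes, all tested, 0 were called under TCP with limma (0.0565% of all tested genes in either direction), 3 were called higher under palbociclib (4.54%) and 5 under the combination (5.87%), and none lower. KLF4, a monocyte factor, was at 7.26 and 4.27 TPM under DMSO and at 31.5 and 30.5 TPM under the combination. This was a log2 fold change of 2.28, and those of CEBPD and CEBPB, both C/EBP factors, were 1.12 and 1.07, all past the thresholds. Under palbociclib KLF4 (1.17) and CEBPD were among those called, the last at the edge of the fold threshold. The list medians for TCP, palbociclib and the combination were −0.11, 0.51 and 0.31, beside all-gene medians of −0.04, −0.16 and −0.22.

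Each S100 gene was also set beside the 2405 genes whose group means spanned at least 1 on the log2 scale and reached 5 TPM in the highest group, by Pearson's r over the 8 libraries, which fall into 4 treatment groups and are not independent draws. S100A8 and S100A9 were most like TLDC2 (0.997 for both), followed by ACAA1 (0.996 for both), a peroxisomal thiolase, and then by CD14, the monocyte co-receptor of TLR4, for S100A8 (0.995) and AMICA1, a leukocyte adhesion gene, for S100A9 (0.996). S100A12 was most like FAM65B (0.991), FCN1 (0.988), a secreted ficolin of monocytes, and LILRB4 (0.987), an inhibitory receptor of monocytes. S100A4 was most like CTSZ (0.987), a lysosomal protease, ASB2 (0.986) and SLA (0.976). S100A6 was most like ARSB (0.998), a lysosomal sulfatase, HSPA6 (0.996) and TIFAB (0.995), and S100A11 like MMP25 (0.999), TK2 (0.998) and NABP1 (0.998). S100A10 was most like IFI16 (0.979), a DNA sensor, TRIM6-TRIM34 (0.974) and TRIM34 (0.973), the last pair sharing sequence. Among the members, r was 0.998 between S100A8 and S100A9, and S100A10 was the one with negative values against all others, from −0.62 to −0.20.

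Markers of other cells were read in the same libraries. The 6 AML identity genes reached 1 TPM in every library, and T cell and erythroid markers had at most 0.173 TPM. Their levels were not all unchanged. FLT3 of the AML identity genes was called lower under palbociclib (log2 fold change −1.52, 4.56% of all tested genes) and the combination (−1.71, 7.82%). SPI1 was called higher under the combination (1.01, 5.87%). Of 21 stromal or fibroblast markers, 12 passed the filter. Against DMSO only THBS1 was called, higher under palbociclib (4.54% of all tested genes) and the combination (5.87%). All 12 were higher under palbociclib and 11 under the combination, with median log2 fold changes of 1.39 and 0.81. The medians over all tested genes were −0.16 and −0.22. COL3A1, SPARC, DCN and FBN1 reached 1 TPM only in libraries with palbociclib, so they passed the filter only through those libraries. For them a level above DMSO was largely set by the filter, so these counts and medians are not a free comparison. THBS1, a gene that monocytes also express, was at 34.7 and 36.3 TPM under DMSO, 48.6 and 51.1 TPM under TCP, 727 and 942 TPM under palbociclib and 1261 and 1454 TPM under the combination. The other 20 stromal markers summed to 26.5 and 42.3 TPM under DMSO, 38.8 and 45.3 TPM under TCP, 54.2 and 71.9 TPM under the combination, and 38.9 and 192 TPM under palbociclib, where replicate 2 also had COL1A1 at 22.2 TPM against at most 3.78 TPM in every other library. S100A16 was at 8.20 TPM in that library and at 0.771 TPM in palbociclib replicate 1. Without palbociclib replicate 2, S100A8, S100A9 and S100A6 were still called under palbociclib (log2 fold changes 7.33, 6.76 and 1.02). S100A11 (0.99), S100A12 (limma adjusted p = 0.0108) and S100A10 (−0.98) then missed a threshold. The part of stromal RNA in the levels of S100A4, S100A6, S100A10 and S100A11, which fibroblasts also express, was not tested. In bulk libraries, fewer cells with a transcript and less transcript per cell cannot be told apart.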

How the data were processed

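RNA of MV4-11 cells was sequenced in 8 libraries, 2 each for DMSO, TCP, palbociclib and the combination. Alignment by the authors was to hg19 (subread-align), gene counts came from featureCounts 1.6.4, and the deposited values are TPM. The submitters' notes also name SAMtools 1.9 and DESeq2 1.26.0. The gene annotation, gene lengths and strand setting are not given in the sources used here, and TPM hold no depth.

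From the deposited TPM, log2(TPM + 1) was fitted with limma 3.58.1 (R 4.3.3), with a coefficient per group, a mean-variance trend, 4 residual degrees of freedom and Benjamini-Hochberg adjustment over 14151 genes. Fold changes on this scale understate those of low genes. Intervals are 95% and two-sided. The fit was tested on simulated data.

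The named genes are the 7 members, the other S100 genes past the filter, at most 4 called genes of the largest log2 change per comparison from the partner and transcription factor lists, and the 3 genes most like each member. Of the genes this rule covers, 2 are not reported here. RAGE (AGER) and the markers were named after their values were seen. The members and lists were chosen with earlier results of these data known.

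Groups share replicate numbers, and the deviations of same-numbered libraries correlated at 0.169 to 0.491 for all 6 pairs of groups. This correlation is the only ground for pairing libraries by number. The main fit held no term for the replicate number, so its standard errors and p-values ignore such a pairing. The replicate block was fitted as an alternative. The alternatives were another pseudocount, filters, scalings, the replicate block, the groups compared alone, no trend, an adjusted p below 0.05 and each library left out. Primary AML samples and chromatin data were not analysed here.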

Additional observations from a re-analysis of the deposited data

How the results depend on the processing

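All 7 S100 genes kept their direction in all 17 alternatives for palbociclib and the combination against DMSO and for the combination against palbociclib, and the combination against DMSO kept 6 called genes in each. Of the values of single genes, 666 kept their direction and side of the threshold, 29 lost a call, 4 gained one and 8 changed sign. With an adjusted p below 0.05, 1 gene, S100A9, was called under TCP. Under palbociclib, 6 genes were called, and 3 to 6 when 1 library was left out, with 3 without DMSO replicate 1 or palbociclib replicate 2. Between the combination and palbociclib, 2 genes were called, and 1 with a pseudocount of 0.1, no filter, only the groups compared or no mean-variance trend, and 0 to 2 when 1 library was left out. With the replicate block the counts were 0 for TCP, 6 each for palbociclib and the combination against DMSO, 5 for the combination against TCP and 2 against palbociclib, and no member's call changed. When 1 library was left out, the TCP difference of S100A6 ranged from −0.13 to 0.14 and reached −0.05 without TCP replicate 2, that of S100A10 from −0.21 to 0.41 with −0.16 without DMSO replicate 2, and that of S100A11 from −0.017 to 0.050 with −0.01 without TCP replicate 1, and the interaction of S100A8 from −0.33 to 0.94 with −0.0044 without DMSO replicate 2. Beyond fewer libraries, the cause was not tested.

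Over all genes, 8 were called under TCP, against 3 with quantile normalization or median-ratio scaling, 20 with the replicate block, 36 with an adjusted p below 0.05, 0 with only the groups compared and 0 to 1 without 1 library. TCP added to palbociclib gave 71, against 42 with a pseudocount of 0.1, 38 without a filter, 114 with the block, 35 with only the groups compared, 183 with an adjusted p below 0.05, and as few as 1 without a palbociclib or combination library. Palbociclib gave 1288, and 787 without its replicate 2, and the interaction 0, and 7 without a filter.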

Other observations

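Monocyte and neutrophil marker genes were read beside the S100 genes. Of 8 monocyte markers, 7 were tested, and 1 was called higher under TCP, 5 under palbociclib and all 7 tested under the combination, where 0.0565% of all tested genes (either direction), 4.54% and 5.87% (higher) were called. FCN1 was listed at 0 and at 0.224 TPM under DMSO, at 11.5 and 14.8 TPM under palbociclib and at 306 and 339.7 TPM under the combination. VCAN, a matrix proteoglycan of monocytes, was at 0.783 and 1.16 TPM under DMSO, 14.7 and 17.0 TPM under TCP, 2.86 and 2.79 TPM under palbociclib and 88.4 and 81.8 TPM under the combination, and it was the 1 monocyte marker called under TCP (log2 fold change 3.10, SE 0.13, limma adjusted p = 0.00101). Between the combination and palbociclib, 5 of the 7 monocyte markers were called higher, against 0.459% of all tested genes.

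Of 10 neutrophil granule markers, 5 were tested. When TCP was added to palbociclib, limma called 0 of them, where 0.459% of all tested genes were called higher and 0.0424% lower. At those shares 0 of 5 says little. With limma, 4 of the 5 had an unadjusted p below 0.05, each of these at a lower level. In that comparison 2472 of 14151 tested genes had an unadjusted limma p below 0.05, in either direction. Against DMSO, 3 were called higher under palbociclib (4.54% of all tested genes), and under the combination 2 were called higher (5.87%) and 1 lower (7.82%). The 2 called higher under the combination were AZU1 and PRTN3, with log2 fold changes of 1.73 and 1.29. PRTN3, proteinase 3 of the primary granule, was at 971 and 831 TPM under DMSO, 419 and 417 TPM under TCP, 4401 and 3798 TPM under palbociclib and 2534 and 1918 TPM under the combination. CTSG, cathepsin G, was the 1 called lower under the combination, with a log2 fold change of −2.33 (SE 0.30, limma adjusted p = 0.000838), at 9.77 and 13.5 TPM against 76.1 and 49.9 TPM. In each library, 3 or 4 of the 10 neutrophil markers were listed at 0, though not always the same markers. These genes were chosen after their values were seen, and no explanation was tested.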
